A study of Mus musculus with 12 samples.

Results

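The immunity-related GTPases (IRG) were followed here in primary mouse oligodendrocyte precursor cells (OPCs) across 4 culture conditions. The members were taken by gene symbol, Irgm1, Irgm2, Igtp, Iigp1, Tgtp1, Tgtp2, Ifi47 and Gm4951, which made 8 of the 55536 genes in the annotation, and all 8 passed the filter on low counts that left 18995 genes for testing. RNA was sequenced in 12 libraries, 3 in each of 4 groups, which were Ctr (neither agent), EZH2i, IFN-γ, and the combined IFN-γ with EZH2i. EZH2i stands for EPZ011989, a small molecule inhibitor of the methyltransferase EZH2, which was given at 1.5 μM for 4 days and renewed every 48 h. After these 4 days, both IFN-γ groups had 100 ng/ml of IFN-γ for 6 h, in the combined group together with fresh inhibitor. Every group came from P4-P6 pups, with brains of several pups pooled for each culture and with different litters used for the replicates. The study's methods give the line as Sox10:Cre-RCE:LoxP (EGFP), in which the Sox10 promoter drives Cre and leaves EGFP in the whole oligodendrocyte lineage. The labels call the cells Sox10GFP+ OPCs, and the protocol allows either sorting for Sox10GFP+ or CD140a beads. All libraries also carry the model label EAE, while the protocol describes pup cultures and no immunization.

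In the GRCm38 annotation used here, 6 members lie on chromosome 11 in 2 separate stretches, and Gm4951 and Iigp1 lie on chromosome 18. The first stretch holds Irgm1 (ENSMUSG00000046879, chr11:48861968-48871683, minus strand), Tgtp1 (ENSMUSG00000078922, chr11:48985327-48994172, minus strand), Tgtp2 (ENSMUSG00000078921, chr11:49057194-49064206, minus strand) and Ifi47 (ENSMUSG00000078920, chr11:49076587-49096974, plus strand). In the second, Igtp (ENSMUSG00000078853, chr11:58199556-58207591) and Irgm2 (ENSMUSG00000069874, chr11:58199618-58222782) lie on the plus strand and share 7974 bases. On chromosome 18, Gm4951 (ENSMUSG00000073555, chr18:60212080-60247820) and Iigp1 (ENSMUSG00000054072, chr18:60376027-60392634) are both on the plus strand, within 180555 bases. All 8 are annotated as protein coding. Tgtp1 and Tgtp2 lie within the span of Olfr56 on the opposite strand and Ifi47 overlaps it on the same strand, Tgtp1 shares 6900 bases with Gm12185, and Gm4951 holds Gm5970. Reads in these overlaps could be divided between the genes by the quantification.

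IRG proteins are interferon-inducible GTPases of cell-autonomous immunity, in which an infected cell attacks the pathogen inside itself. The effector members load onto the membrane of vacuoles that hold intracellular parasites and bacteria and help to break it, and the regulatory members sit on the cell's own membranes and keep the effectors inactive there. By background knowledge Irgm1, Irgm2 and Igtp (Irgm3) are regulators of the GMS class and Iigp1 (Irga6), Tgtp1 and Tgtp2 (Irgb6), Ifi47 (Irgd) and Gm4951 are members of the GKS class, named after letters of the nucleotide-binding loop.

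The promoters were inspected for what the members share in sequence. A RefSeq table for GRCm38.p6 gave a window from 250 bases before to 50 bases after the transcript start for 6 of the 8 members, Irgm1, Irgm2, Igtp, Tgtp1, Tgtp2 and Ifi47. Iigp1 and Gm4951 had no entry. Each window was searched on both strands for the core of the interferon-stimulated response element (ISRE), taken as GAAA, any 2 bases and GAAA again, and for the gamma-activated site (GAS), written TTCNNNGAA. Both are elements known from the promoters of interferon-induced genes. The ISRE core was present in 5 of the 6 windows and the GAS letters in 4 of them, against 3.44% and 8.3% of all 32851 windows in the table. Both were present in 4 of the 6 members' windows and in 0.454% of all windows. These 4 windows are alike in sequence around the matches, as described below, so they may not be independent occurrences. The stretches with the matches are printed 5′ to 3′ on the gene's strand because the same arrangement recurs in them, and capitals mark the matched letters of both motifs.
Irgm2: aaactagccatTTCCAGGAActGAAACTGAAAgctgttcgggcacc
Igtp: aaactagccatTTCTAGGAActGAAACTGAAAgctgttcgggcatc
Tgtp1: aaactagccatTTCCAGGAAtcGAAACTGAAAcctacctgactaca
Tgtp2: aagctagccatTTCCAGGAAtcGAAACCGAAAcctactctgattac
Irgm1: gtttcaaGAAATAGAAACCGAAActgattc

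These stretches lie at chr11:58214891-58214936 (Irgm2, plus strand), chr11:58199500-58199545 (Igtp, plus strand), chr11:48992300-48992345 (Tgtp1, minus strand), chr11:49064259-49064304 (Tgtp2, minus strand) and chr11:48871428-48871457 (Irgm1, minus strand). In Irgm2, Igtp, Tgtp1 and Tgtp2 the GAS letters come first and the ISRE core follows with no overlap between them. Irgm2 and Igtp were identical at 44 of the 46 printed bases, and Tgtp1 and Tgtp2 at 36 of 46. The pairs across were close to the latter, with Tgtp1 and Tgtp2 identical to Irgm2 at 35 and 34 bases and each to Igtp at 33. Irgm1 held 2 copies of the ISRE core that overlap each other and no GAS letters in the window. Counted from the transcript start, the ISRE core began at base -34 in Igtp, -64 in Irgm2, -77 in Tgtp1, -70 in Tgtp2 and at -30 and -24 in Irgm1. The Ifi47 window held neither motif, but 97.5% ± 0.160 (SD, n = 3) of the Ifi47 counts with IFN-γ were assigned to a transcript that starts 10452 bases downstream of the RefSeq transcript start. For the other 5 genes the transcript with most counts started within 51 bases of the RefSeq start. A match gives the presence of the letters and was not tested as a binding site.

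**Figure D1:**
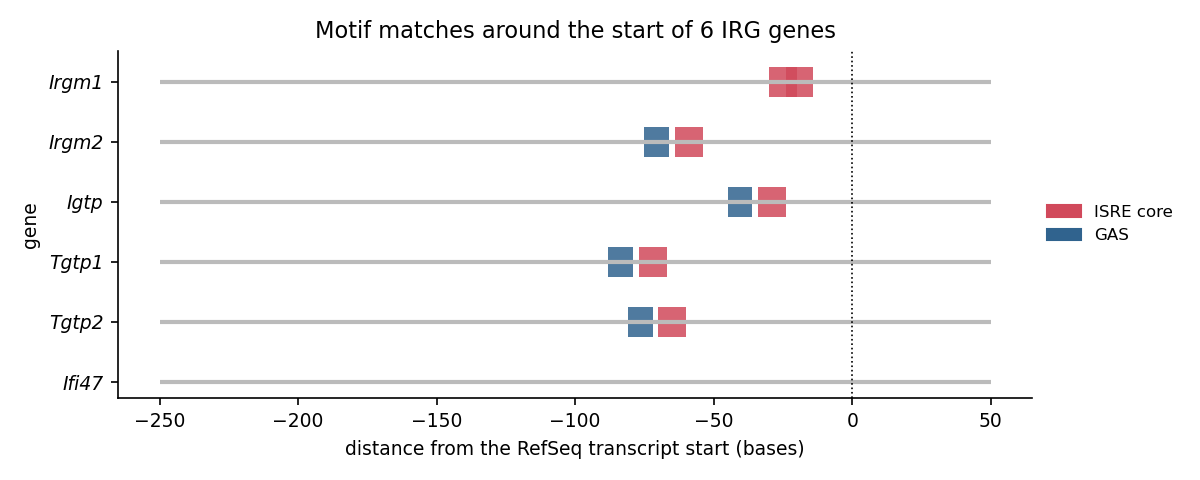
Positions of ISRE core (red) and GAS (blue) matches in the promoter windows of 6 IRG genes, in bases from the RefSeq transcript start (dotted line), with grey lines for the searched window. In 4 genes a GAS match lies directly before an ISRE core match, Irgm1 has 2 overlapping ISRE core matches, and Ifi47 has none.

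The counts behind these genes are the estimated read pairs of Salmon summed over each gene's transcripts, and the library totals ranged from 17403896 to 66546017 with a median of 33625880. Levels are given as CPM, the counts scaled to a common library total with edgeR's TMM factors, and as TPM, which is also divided by transcript length, where genes are compared with each other. The OPC markers Pdgfra, Cspg4, Ptprz1, Sox10, Olig1, Olig2 and Cspg5 summed to 6457 to 7483 CPM in the Ctr libraries, 6012 to 6230 with EZH2i, 4475 to 6041 with IFN-γ and 4244 to 4927 with both agents. Of these 7, Pdgfra and Cspg4 were called lower with IFN-γ than in Ctr, at log2 fold changes of -1.07 and -1.16, and the other 5 were not called. Markers of microglia and macrophages summed to 0.678 to 1.74 CPM in each library, with Aif1 and C1qa at or under 3 counts throughout, and T cell markers to at most 0.479 CPM. Astrocyte markers summed to 787 to 2040 CPM, those of mature oligodendrocytes to 781 to 1839 CPM, endothelial ones to 8.26 to 35.2 CPM, and those of pericytes and leptomeninges to 0.957 to 3.78 CPM. This last sum was 0.957 to 1.82 CPM in Ctr and 2.50 to 3.78 CPM with IFN-γ, and Lum was called higher (0.0826 ± 0.0250 to 1.35 ± 0.413 CPM). The microglia and macrophage sum was also apart, at 0.678 to 1.09 and 1.25 to 1.74 CPM, with none called. The 4 neuron markers summed to 34.7 to 48.0 CPM in the Ctr libraries and to 685 to 1278 CPM in the IFN-γ libraries, and 2 of them were called higher. Most of that sum was Tubb3 (named after its values were seen, as were the others here), at 26.7 ± 6.47 and 916 ± 304 CPM, and the other one was Syt1, while Snap25 and Rbfox3 were not called. The part of other cells in the results was not tested, and in bulk RNA fewer cells of a type and less RNA per cell cannot be told apart.

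IFN-γ raised every IRG member. In the Ctr libraries the 8 genes together made up 0.00213% to 0.00312% of the counts, and in the IFN-γ libraries they made up 0.859% to 1.17%. Summed over the 8 members, the 3 Ctr libraries had 23.7, 20.9 and 30.1 CPM and the 3 IFN-γ libraries had 9145, 10266 and 12017 CPM. All 8 passed the threshold (edgeR quasi-likelihood test, Benjamini-Hochberg adjusted p under 0.05 over all genes), where 8.75% of all tested genes were called and 6.65% were called higher. The groups did not overlap in any of the 8, against 13.5% of all genes that were higher without overlap. The fitted log2 fold changes ran from 7.27 to 10.24 with a median of 9.50, beside a median of 0.00 over all genes, and the adjusted p-values ran from 2.98e-10 to 6.42e-08.

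Among the regulators, Irgm1 had the highest level in Ctr and the smallest fold change of the 8 members. Its 3 Ctr libraries, in the order of replicates 1, 2 and 3, had 12.6, 9.09 and 18.5 CPM. The 3 IFN-γ libraries had 1684, 1960 and 2584 CPM. The lowest IFN-γ library thus stood far above the highest Ctr library, and the log2 fold change was 7.27 (SE 0.37, 95% interval 6.45 to 8.09, edgeR adjusted p = 6.42e-08). This interval lies below those of the other 7 members, whose lower bounds were 8.61 or more, although the difference between genes was not itself tested. Irgm1 ranked 94th by log2 fold change among the 18995 tested genes, whereas the other 7 ranked between 2 and 26.

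Igtp was the most abundant member after IFN-γ. In Ctr it had 4.22, 5.03 and 4.80 CPM, a narrow range. With IFN-γ it had 2824, 3611 and 3344 CPM, with no overlap and a log2 fold change of 9.44 (SE 0.26, edgeR adjusted p = 3.24e-10). Irgm2, its neighbour on the chromosome, had 0.886, 0.678 and 1.14 CPM in Ctr. With IFN-γ it had 572, 589 and 670 CPM, the tightest IFN-γ group of the 3 regulators, and a log2 fold change of 9.33 (SE 0.25, adjusted p = 2.98e-10, edgeR). An Irgm2 transcript that begins inside Igtp took 21.2% ± 10.3 (SD, n = 3) of the Irgm2 counts with IFN-γ, and 9.16% of the 31-base words in Irgm2 transcripts also occur in Igtp, so part of the Irgm2 count could be shared with Igtp.

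The effectors began lower and rose by larger factors than Irgm1. Iigp1, which coats the vacuole of Toxoplasma, had 3.30, 2.88 and 2.46 CPM in Ctr. With IFN-γ it had 1854, 1552 and 2502 CPM, and the log2 fold change was 9.42 (SE 0.31, edgeR adjusted p = 1.10e-09). The highest of these libraries was replicate 3, as it was for Irgm1. Ifi47 had 0.390, 0.790 and 0.662 CPM in Ctr and 329, 527 and 515 CPM with IFN-γ. Here replicate 1 was the low one in both groups, and the log2 fold change was 9.55 (SE 0.43, edgeR adjusted p = 1.80e-08). The rise was nonetheless far larger than the spread between its libraries.

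Tgtp1 and Tgtp2 encode nearly the same effector and can only in part be told apart by reads. Of the 31-base words in their annotated transcripts, 83.2% of those of Tgtp1 occur in Tgtp2 and 89.2% of those of Tgtp2 occur in Tgtp1. As Salmon divided the reads, Tgtp1 had 0.567, 0.734 and 0.882 CPM in Ctr and 490, 527 and 682 CPM with IFN-γ. Tgtp2 had 1.74, 1.24 and 1.59 CPM in Ctr and 1208, 1302 and 1445 CPM with IFN-γ. The groups did not overlap in either gene, with log2 fold changes of 9.56 (SE 0.26) for Tgtp1 and 9.73 (SE 0.25) for Tgtp2 and the same edgeR adjusted p of 2.98e-10. The sum of both genes does not depend on how reads were divided between them. It had 2.30, 1.98 and 2.48 CPM in Ctr, 1698, 1829 and 2127 CPM with IFN-γ, and a log2 fold change of 9.69 (SE 0.24, edgeR adjusted p = 2.89e-10).

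Gm4951, a lesser known IRG gene on chromosome 18 like Iigp1, had the largest fitted change of the 8 members and the fewest reads at rest. It was counted with 2, 8 and 8 read pairs in Ctr, or 0.0709, 0.452 and 0.136 CPM, so the size of its fold change rests on few reads and replicate 1 was under the floor of 3 counts. With IFN-γ it had 184, 198 and 275 CPM. The log2 fold change was 10.24 (SE 0.43, 95% interval 9.31 to 11.18, edgeR adjusted p = 9.54e-09), the second highest of all tested genes. Leaving out one library at a time moved it between 9.91 and 10.87, and the highest of these was without Ctr replicate 2, the Ctr library with the most Gm4951.

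**Figure D2:**
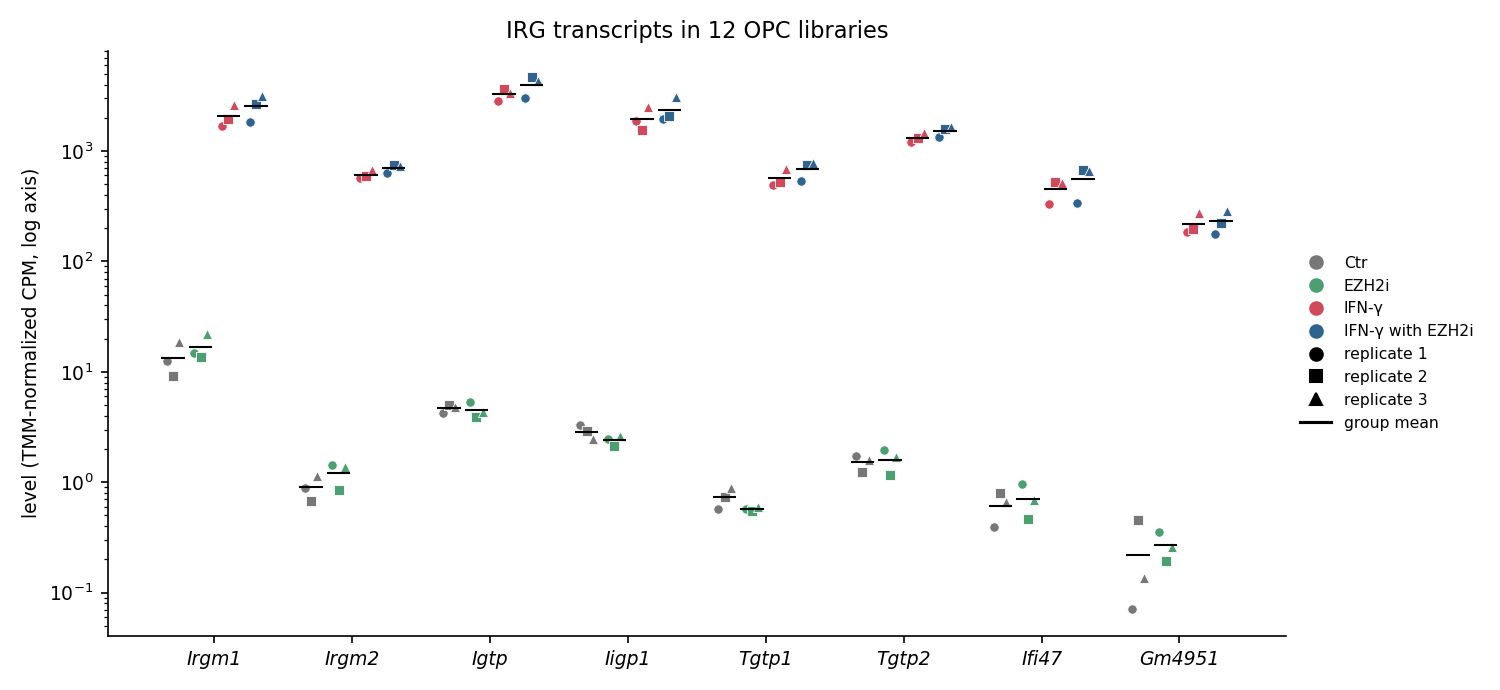
Level of each IRG gene in the 12 libraries as TMM-normalized CPM on a log axis, with a symbol per replicate, a colour per group and a black line for the group mean. In all 8 genes the libraries with IFN-γ stand apart from those without it, the nearest being Irgm1 with 9.09 to 21.8 CPM without and 1684 to 3140 CPM with IFN-γ.

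The order of the members by level per length also differed between rest and IFN-γ. In Ctr, Irgm1 led with 4.66 ± 2.50 TPM, followed by Igtp with 1.73 ± 0.487 TPM, and their libraries did not overlap. Tgtp2 (0.735 ± 0.329 TPM) and Iigp1 (0.732 ± 0.0743 TPM) came next and overlapped with each other. Of the Tgtp2 mean, 0.373 TPM was on a 370-base processed transcript with a mean of 3.83 counts. The longer coding transcript had 0.362 TPM, so the place of Tgtp2 beside Iigp1 rests on that short transcript. Ifi47, Tgtp1 and Irgm2, at 0.282 ± 0.135, 0.255 ± 0.0994 and 0.186 ± 0.0789 TPM, followed below Iigp1 and each overlapped with the next of these 3. Gm4951 was last with 0.0618 ± 0.0580 TPM, without overlap.

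With IFN-γ, Igtp led with 1383 ± 280 TPM, rank 27 of the 28752 genes with a level above 0. Irgm1 followed with 807 ± 168 TPM and overlapped with Iigp1 at 584 ± 107 TPM. Tgtp2 had 496 ± 11.8 TPM, apart from both neighbours. Of this, 120 TPM was on its 370-base processed transcript, which held 1.98% of the Tgtp2 counts. Ifi47 (237 ± 70.8 TPM) and Tgtp1 (193 ± 30.6 TPM) overlapped, and Irgm2 (142 ± 14.05 TPM) and Gm4951 (67.8 ± 13.2 TPM) closed the order. Gm4951 stood at rank 1072 of all genes, after rank 21119 of 27461 in Ctr.

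As a share of the summed TPM of the 8 members, Irgm1 made up 53.0%, 43.1% and 60.6% in the 3 Ctr libraries and 18.9%, 19.9% and 22.8% in the 3 IFN-γ libraries. Further IRG genes, described below, are outside this sum. The share of Igtp was 19.0%, 26.4% and 16.9% in Ctr and 34.5%, 39.5% and 31.8% with IFN-γ. Both shares moved without overlap, in opposite directions. Those of Iigp1 (6.15% to 10.8% in Ctr, 12.2% to 17.0% with IFN-γ), Tgtp2 (6.15% to 10.7% and 11.6% to 15.3%) and Irgm2 (1.95% to 2.22% and 3.51% to 3.82%) also rose without overlap. The shares of Tgtp1, Ifi47 and Gm4951 overlapped. All shares of a library are parts of 1 sum, so they do not move independently. Iigp1 went from 9.11% ± 2.57 to 15.0% ± 2.48, and each of the other 5 members made up at most 15.6% in any library.

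**Figure D3:**
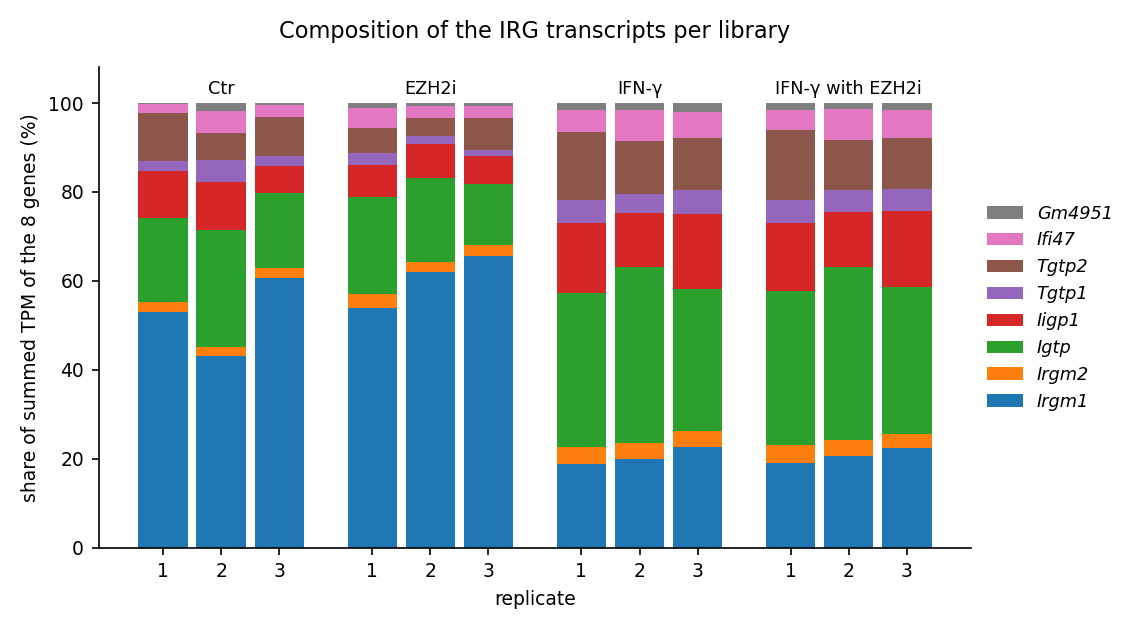
Share of each gene in the summed TPM of the 8 IRG genes (y axis, percent) in each library, with the replicate number on the x axis and the 4 groups side by side. Irgm1 (blue) takes 43.1% to 65.6% of this sum without IFN-γ and 18.9% to 22.8% with it, where Igtp (green) takes 31.8% to 39.5%.

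The rise with IFN-γ was also present in cells that had been kept in EZH2i. All 8 members were called between IFN-γ with EZH2i and EZH2i, where 8.07% of all tested genes were called and 5.9% were called higher (19.3% with the replicate number as a block, a fit in which all 8 were called too). No member's groups overlapped, against 11.8% of all genes that were higher without overlap. The log2 fold changes ran from 7.25 for Irgm1 to 10.21 for Tgtp1, and the adjusted p-values (edgeR) from 2.22e-10 to 5.97e-08. Irgm1 again had the smallest change and an interval (6.44 to 8.07) below those of the others, whose lower bounds were 8.62 or more. In TPM the order was Igtp (1539 ± 339), Irgm1 (904 ± 197), Iigp1 (643 ± 123), Tgtp2 (541 ± 15.9), Ifi47 (262 ± 88.2), Tgtp1 (214 ± 28.6), Irgm2 (150 ± 15.9) and Gm4951 (65.1 ± 11.6), the same as with IFN-γ alone, except that here Iigp1 and Tgtp2 overlapped. Of the Tgtp2 mean, 143 TPM was on its 370-base processed transcript, which held 2.34% of the Tgtp2 counts. The longer coding transcript had 398 TPM, while the lowest Iigp1 library had 546 TPM. This comparison and the one with Ctr share no library. OPC markers summed to 6012 to 6230 CPM with EZH2i and 4244 to 4927 CPM with both agents, with Pdgfra and Cspg4 called lower. Neuron markers summed to 48.6 to 85.4 and 949 to 1643 CPM, with Tubb3 and Syt1 called higher. Lum was also called higher. The microglia and macrophage sum was apart (1.00 to 1.29 and 1.31 to 1.64 CPM), with none called. The part of other cells in these values was not tested.

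The comparison of EZH2i with Ctr asks whether blocking the enzyme that writes the repressive mark H3K27me3 is by itself followed by a change in these genes. None of the 8 was called, where 0.405% of all tested genes were called in edgeR and 1.44% in DESeq2, and none had an unadjusted p under 0.05 in either tool, against 7.04% of all genes in edgeR and 4.86% in DESeq2. The fitted log2 differences ran from -0.38 for Tgtp1 to 0.55 for Gm4951, with edgeR adjusted p-values of 0.875 or more. The groups overlapped in all 8, while 7.37% of all genes were higher with EZH2i without overlap. Summed markers of mature oligodendrocytes were at 1470 to 1839 CPM in Ctr and 808 to 1287 CPM with EZH2i, with 0 of 5 called. The summed endothelial markers (9.20 to 16.8 in Ctr, 19.4 to 35.2 CPM with EZH2i) and neuron markers (34.7 to 48.0 and 48.6 to 85.4 CPM) did not overlap either, also with none called. The OPC markers were also apart (6457 to 7483 CPM in Ctr, 6012 to 6230 with EZH2i). So were those of pericytes and leptomeninges (0.957 to 1.82 and 1.91 to 2.72 CPM), again with none called in both sets. The part of these cells in the values was not tested.

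Among the regulators, Irgm1 had 14.7, 13.6 and 21.8 CPM with EZH2i, overlapping with the Ctr group (log2 difference 0.32, 95% interval -0.32 to 0.95). Irgm2 had 1.43, 0.849 and 1.37 CPM and also overlapped (0.37, -0.12 to 0.85). Igtp had 5.36, 3.86 and 4.30 CPM and a log2 difference of -0.06 (-0.48 to 0.36). These intervals leave room for differences in either direction.

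Among the effectors, the intervals were widest for Ifi47 and Gm4951. Iigp1 had 2.47, 2.14 and 2.60 CPM with EZH2i, a log2 difference of -0.25 (95% interval -0.76 to 0.26). Tgtp1 had 0.572, 0.548 and 0.592 CPM (-0.38, -0.93 to 0.17) and Tgtp2 had 1.97, 1.15 and 1.70 CPM (0.05, -0.39 to 0.49). The sum of Tgtp1 and Tgtp2 differed by -0.07 on the log2 scale (-0.47 to 0.33). Ifi47 had 0.965, 0.466 and 0.683 CPM (0.19, -0.72 to 1.10). Gm4951 had 0.357, 0.192 and 0.258 CPM (0.55, -0.64 to 1.75), from 10, 7 and 17 read pairs. The intervals of these last genes hold differences of more than 0.6 on the log2 scale in either direction.

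Under IFN-γ, all 8 fitted values were higher with EZH2i than without it, by little, and none passed the test. The 3 libraries with both agents had 9866, 13372 and 14594 CPM for the 8 members summed, or 0.930% to 1.38% of the counts, and overlapped with the IFN-γ libraries. No member's groups were apart, while 6.08% of all genes were higher with both agents without overlap. The log2 differences ran from 0.07 (Gm4951) to 0.30 (Irgm1) with a median of 0.27, beside a median of -0.01 over all genes. None of the 8 was called, where 0.353% of all tested genes were called in edgeR (smallest adjusted p of a member 0.954) and 1.2% in DESeq2, and none had an unadjusted p under 0.05 in either tool, against 6.42% and 4.52% of all genes. With the replicate number as a block, which the check of the pairing allows for this comparison, 3.94% of all genes were called, again with none of the 8 (smallest adjusted p 0.136) and 1 of the 8, Tgtp1, under an unadjusted p of 0.05, against 17.3% of all genes. Summed markers of mature oligodendrocytes were at 1393 to 1611 CPM with IFN-γ and 781 to 1272 CPM with both agents, and endothelial ones at 8.26 to 16.4 and 17.1 to 32.4 CPM, with no overlap and none called, and their part in these values was not tested.

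The libraries with both agents had the following levels. Irgm1 had 1849, 2674 and 3140 CPM, a log2 difference of 0.30 (95% interval -0.32 to 0.92). Igtp had 3033, 4648 and 4264 CPM (0.29, -0.11 to 0.69). Irgm2 had 632, 746 and 729 CPM (0.20, -0.17 to 0.58). Each of the 3 regulators overlapped with its IFN-γ group.

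The effectors gave the same picture. Iigp1 had 1960, 2063 and 3106 CPM (log2 difference 0.27, 95% interval -0.19 to 0.74). Tgtp1 had 530, 744 and 776 CPM (0.27, -0.11 to 0.65) and Tgtp2 had 1345, 1596 and 1636 CPM (0.21, -0.16 to 0.58). All of these include 0, and the highest upper bound among the 8 members was 0.92. With the replicate block the intervals were narrower, from 0.07 to 0.46 for Tgtp1 and with a lower bound below 0 for the other 7 members, and the highest upper bound was 0.61. Ifi47 had 338, 677 and 656 CPM (0.29, -0.33 to 0.90). Gm4951 had 178, 225 and 289 CPM (0.07, -0.49 to 0.63).

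Taken by replicate number, the CPM with both agents was above that with IFN-γ alone in 23 of the 24 pairs of libraries and genes, with ratios from 0.966 to 1.41. The exception was Gm4951 in replicate 1. The 8 genes of a library share its RNA and its scaling, so these are 3 pairs and not 24. Counted by gene, every member except Gm4951 was higher in 3 of 3 pairs, as were 23.3% of all tested genes. In TPM the count was 20 of 24 pairs, with ratios from 0.933 to 1.25.

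**Figure D4:**
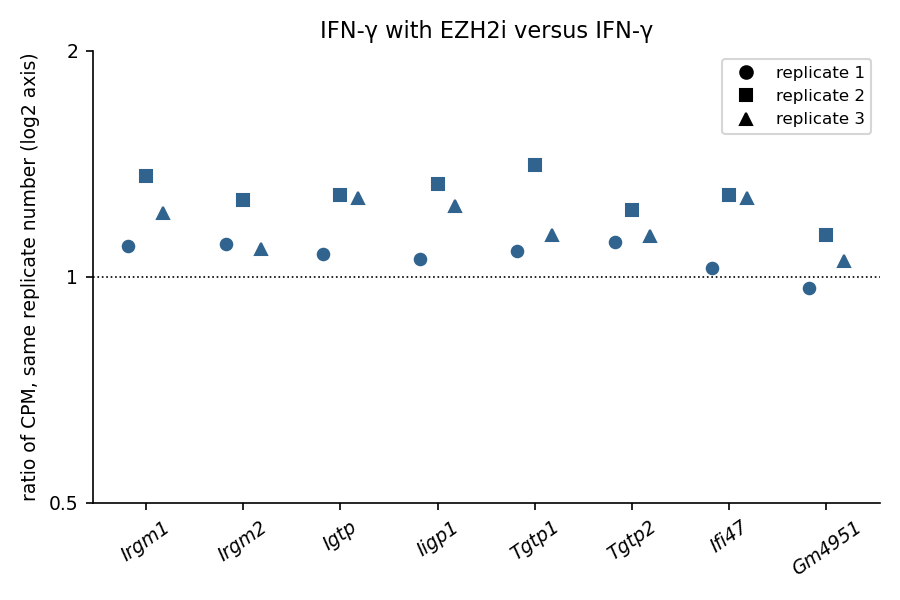
Ratio of CPM in IFN-γ with EZH2i to CPM in IFN-γ between libraries of the same replicate number, on a log2 axis, for each IRG gene, with a symbol per replicate. The dotted line marks a ratio of 1, and the points lie between 0.966 and 1.41.

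The interaction asks whether the effect of EZH2i differed between cells with and without IFN-γ. No member passed (edgeR, 0.0% of all genes called, and 127 of 18995 with an unadjusted p under 0.05, none of them members). DESeq2 also called no gene, with 218 of 31994 genes at an unadjusted p under 0.05. The fitted interaction ran from -0.48 (Gm4951) to 0.65 (Tgtp1, SE 0.31, unadjusted p = 0.0546 in edgeR). For the sum of Tgtp1 and Tgtp2 it was 0.29 (SE 0.25), between the values of Tgtp1 and of Tgtp2 (0.16, SE 0.27).

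**Figure D5:**
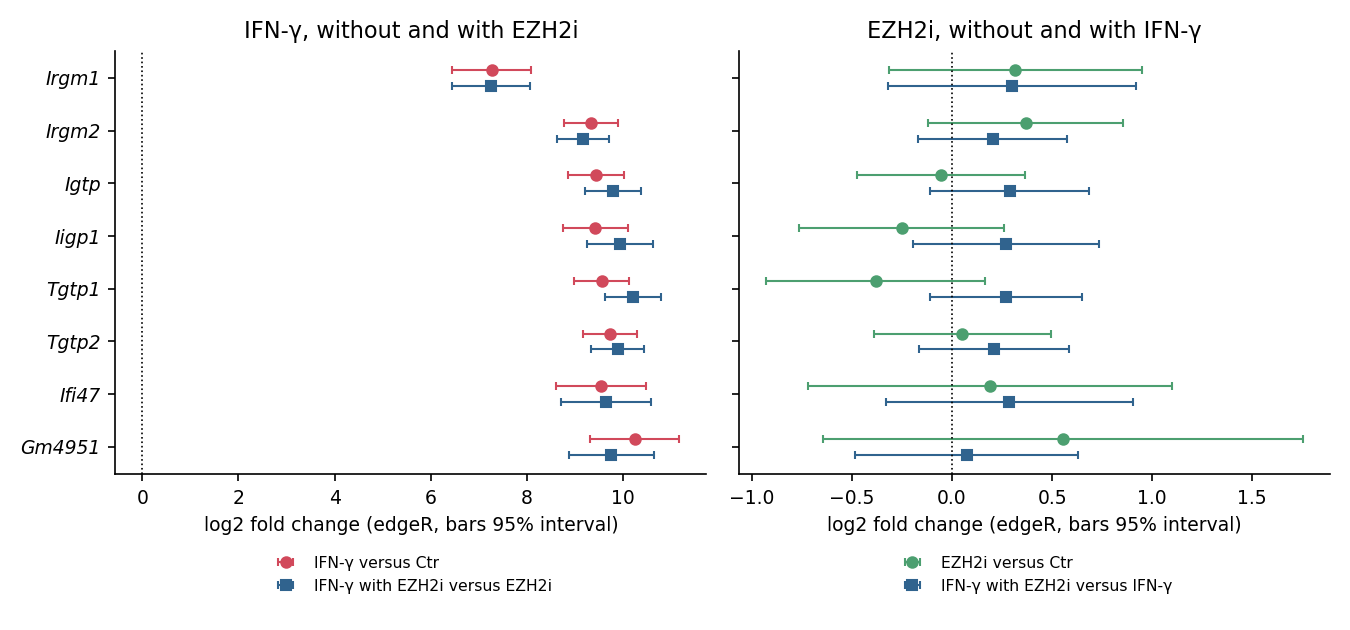
Fitted log2 fold changes of the 8 IRG genes with 95% intervals (x axis), for IFN-γ in the absence and presence of EZH2i (left) and for EZH2i in the absence and presence of IFN-γ (right), from the fit without a replicate block. All intervals on the left lie above 6.4 and all on the right include 0.

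Other genes of the pathway were read from lists. Of 8 further IRG genes, 7 were tested and 6 were called higher with IFN-γ, with a median log2 fold change of 9.70 (9.54 when 9930111J21Rik1, which had at most 1 count in any Ctr library, is set at its bound). F830016B08Rik had 0.135 ± 0.0772 CPM in Ctr and 193 ± 51.6 CPM with IFN-γ (log2 fold change 10.24, edgeR adjusted p = 1.12e-08). 9930111J21Rik1 reached 14.3 ± 1.02 CPM, at least 131-fold higher against a floor of 3 counts in each Ctr library. Gm12250 had the smallest change of those called, from 0.903 ± 0.397 to 403 ± 46.1 CPM. Irgq, a quasi IRG gene without a working GTPase, had 64.5 ± 6.31 and 69.5 ± 9.31 CPM (adjusted p = 0.806, edgeR). None of the 7 was called with EZH2i, in either comparison.

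The guanylate-binding proteins, a second family of interferon-inducible GTPases that works beside the IRG proteins, had 10 of 10 tested genes called higher with IFN-γ. Their median log2 fold change was 8.69 (8.03 with Gbp8, at most 1 count in any Ctr library, at its bound). Gbp4 went from 0.874 ± 0.124 to 889 ± 94.9 CPM and Gbp8 reached 10.4 ± 2.56 CPM, at least 95.1-fold higher. Gbp3 and Gbp7 had the smallest changes, with log2 fold changes of 5.78 and 6.05. The ISRE core was present in all 5 windows that the promoter table held for this family (Gbp2, Gbp2b, Gbp3, Gbp5 and Gbp7), and the GAS letters in 2 of them. Gbp2b itself was not tested and had at most 2 counts in any IFN-γ library. The core was in 3 of 5 genes with a window among the further IRG genes. In the lists below it was in 2 of 9 signaling genes, 1 of 11 ATG8 and ubiquitin genes, 0 of 6 PRC2 genes and 0 of 2 genes of most similar profile. With EZH2i none of the 10 tested guanylate-binding genes was called, in either comparison.

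Of 10 genes of IFN-γ receptor and JAK-STAT signaling, 8 were called higher with IFN-γ, with a median of 3.804 on the log2 scale. The transcription factor Irf8 went from 1.80 ± 0.176 to 454 ± 82.2 CPM and the feedback inhibitor Socs1 from 1.15 ± 0.203 to 122 ± 11.02 CPM. The receptor subunits did not pass, with 23.8 ± 2.93 and 21.2 ± 3.39 CPM for Ifngr1 and 26.7 ± 5.99 and 19.9 ± 3.42 CPM for Ifngr2. None was called with EZH2i, in either comparison.

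The ATG8 conjugation machinery and the ubiquitin factors known to act on IRG-coated vacuoles were mostly not called. Of 14 genes, 2 were called higher with IFN-γ, which were the antibody receptor and ubiquitin ligase Trim21 (3.65 ± 0.275 to 85.6 ± 12.1 CPM) and Atg16l1 (48.8 ± 1.53 to 63.1 ± 2.56 CPM, edgeR adjusted p = 0.0327). Atg16l1 was not called in the comparison within EZH2i (adjusted p = 0.540, edgeR). Atg7 and Gabarap had the lowest fitted values, -0.07 and -0.04 on the log2 scale, neither of them called. None of the 6 PRC2 genes was called in any comparison. Ezh2 itself, the target of the inhibitor, had 49.4 ± 5.21 CPM in Ctr, 39.6 ± 7.66 with EZH2i, 46.6 ± 4.80 with IFN-γ and 38.1 ± 5.28 with both. Its RNA level is no check of an inhibitor of the enzyme.

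Among the genes whose profile over the 12 libraries was most like the mean profile of the 8 members were Parp14, Dtx3l, Gbp6 and Irf1, each with a Pearson r of 0.999 (to 3 digits) among 14673 genes of at least 1 CPM. This likeness comes almost entirely from the contrast of the 6 libraries with IFN-γ and the 6 without. Parp14 went from 1.80 ± 0.165 to 755 ± 117 CPM and Irf1 from 11.98 ± 0.410 to 951 ± 116 CPM. Between IFN-γ with and without EZH2i, these 4 genes had log2 differences of 0.06 to 0.12, none called, beside the 0.07 to 0.30 of the IRG members.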

How the data were processed

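RNA-seq was done on 12 libraries of cultured OPCs, prepared with a stranded total RNA kit. After trimming, the authors estimated transcript abundance with Salmon (version 0.8.2 per the labels' processing notes), and the deposited files hold estimated counts and TPM per transcript for each library. The library type given to Salmon is not given in the sources used here. The deposited tables of the authors' own comparisons hold their fold changes and p-values and were not used.

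Transcripts were matched to genes with GENCODE M21 on GRCm38 (141862 transcripts, 0 unmatched), and estimated counts were added up over each gene's transcripts and rounded to whole numbers. All 4 groups of 3 libraries, taken from the labels, entered 1 fit with edgeR 4.0.16 in R 4.3.3 (TMM factors, filterByExpr, quasi-likelihood test, Benjamini-Hochberg adjustment over 18995 genes, threshold 0.05), and contrasts were read from it. The fitting code was tested on simulated data. Alternatives were DESeq2 1.42.0 (called genes counted among those given an adjusted p), RLE factors, no filter on low counts or at least 10 counts in every library, limma 3.58.1 on log2(TPM + 0.1) and log2(TPM + 1), only the 6 libraries compared, Tgtp1 and Tgtp2 summed, the replicate number as a block, and each library left out. The IRG members and all lists were chosen with earlier results of these data known. Named were all 8 members, per list the 2 largest and 2 smallest fitted changes with IFN-γ among tested genes, the 5 genes of most similar profile (1 of them is not reported here), and Ezh2.

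Replicates came from different litters, and the labels do not say that a number marks a shared litter. Deviations from the group means of same-numbered libraries correlated at 0.493 or more in all 3 pairs of IFN-γ with EZH2i against EZH2i and against IFN-γ. For these comparisons, results with the replicate block are given beside the main fit, in which no comparison was paired. In the comparisons with Ctr the lowest value was 0.0467 for EZH2i and 0.0855 for IFN-γ, and no pairing was assumed. Library totals differed 3.82-fold, so low genes are less precise in the shallow libraries. Replicates of every group differed by more than sampling noise.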

Additional observations from a re-analysis of the deposited data

How the results depend on the processing

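The number of IRG members called was 7 or 8 in both IFN-γ comparisons and 0 in both EZH2i comparisons and the interaction under every alternative. It was 7 where at least 10 counts in every library were asked, which removed Gm4951, and where Tgtp1 and Tgtp2 were summed to 1 feature. The highest adjusted p of a member over the alternatives was 8.25e-06 (IFN-γ against Ctr) and 5.33e-06 (IFN-γ with EZH2i against EZH2i). The smallest ran from 0.298 to 0.987 for EZH2i against Ctr, from 0.136 to 1.0 for IFN-γ with EZH2i against IFN-γ, and from 0.631 to 1.0 for the interaction.

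Counts over all genes moved more. For IFN-γ against Ctr, 1663 became 1102 with limma on log2(TPM + 1). For IFN-γ with EZH2i against EZH2i, 1533 became 947 and 970 with limma and pseudocounts of 0.1 and 1. For EZH2i against Ctr, 77 became 308 with DESeq2, 121 with no filter, 29 with at least 10 counts in every library, 37 with limma and a pseudocount of 1, and 33 with only the 6 libraries. For IFN-γ with EZH2i against IFN-γ, 67 became 264 with DESeq2, 11 with at least 10 counts, 26 and 15 with limma and pseudocounts of 0.1 and 1, and 7 with only the 6 libraries. Leaving out one library gave 11 (without Ctr replicate 3) to 83 calls for EZH2i against Ctr and 10 (without IFN-γ replicate 2) to 65 for IFN-γ with EZH2i against IFN-γ. The cause was not tested.

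In the fit with replicate number as a block, calls over all genes became 4032 for IFN-γ against Ctr, 3661 for IFN-γ with EZH2i against EZH2i, 771 for EZH2i against Ctr and 748 for IFN-γ with EZH2i against IFN-γ, and the block changed no call of an IRG member.

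Small differences that were not called changed sign. In EZH2i against Ctr, limma with pseudocounts of 0.1 and 1 gave log2 differences of 0.24 and 0.16 for Igtp, 0.080 and 0.039 for Iigp1, and -0.16 and -0.073 for Tgtp2, and leaving out one library gave -0.20 to 0.040 for Igtp, -0.10 to 0.24 for Tgtp2 and -0.039 to 0.39 for Ifi47. In IFN-γ with EZH2i against IFN-γ, Gm4951 was -0.055 and -0.054 with limma and -0.13 to 0.27 with one library left out. For the interaction, limma gave -0.087 and -0.0059 for Igtp and, with a pseudocount of 0.1, -0.25 for Ifi47, and leaving out one library gave -0.33 to 0.22 for Irgm1, -0.027 to 0.31 for Tgtp2 and -0.11 to 0.35 for Ifi47.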

Other observations

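The 3 regulators summed to 6.58 ± 2.90 TPM in Ctr and the 5 effectors to 2.07 ± 0.462 TPM (SD, n = 3). Irgm1 made up 4.66 TPM of the first sum, and the third regulator, Irgm2, was below 4 of the 5 effectors at 0.186 TPM. A difference between the classes was not tested. With IFN-γ the sums were 2332 ± 412 and 1578 ± 169 TPM, and with both agents 2593 ± 522 and 1725 ± 205 TPM.
The transcripts of a gene were used unevenly. With IFN-γ, Irgm1-202 took 65.97% of the Irgm1 counts, Iigp1-202 took 71.9% of the Iigp1 counts and a shorter coding transcript of that gene 25.1%, and Tgtp2-201 took 98.0% of the Tgtp2 counts. In TPM the division of Tgtp2 was 376 for Tgtp2-201 and 120 for the 370-base Tgtp2-202. These shares are Salmon's division of reads between overlapping transcripts and have no independent check here.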
